A study of Rattus norvegicus with 2 samples.

Results

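Horizontal cells are inhibitory interneurons of the outer retina. They receive input from photoreceptors, feed back onto them and onto bipolar cells, and are joined to each other by gap junctions. The 8 horizontal cell marker genes examined here, Lhx1, Onecut1, Onecut2, Prox1, Calb1, Gja10, Sept4 and Tpm3, were taken by gene symbol, and 8 of 8 were found among the 32662 genes of the deposited table. The retinas came from Long-Evans rats aged 2 months. CTRL was a retina after a sham procedure and IR12 a retina taken 12 hours after reperfusion that followed ischemia, with 1 rRNA-depleted, stranded library per group. The difference between the groups therefore has no replicate check, and no p-value was computed. Values are FPKM, which are relative to the length of the transcript and to sequencing depth, so that levels can be set side by side between genes of a library. How depth was scaled between these libraries is not given in the sources used here. The directions of Lhx1, Sept4 and Gja10, of the members' median and of their summed FPKM depend on it.

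The identity of a horizontal cell is set by transcription factors. Onecut1 and Onecut2 act early in its specification, Lhx1 acts in its differentiation and laminar position, and Prox1 acts in its formation. The other members serve the mature cell. Calb1 encodes calbindin, a cytosolic calcium buffer, Gja10 encodes a connexin of horizontal cell gap junctions, Sept4 encodes a filament-forming septin, and Tpm3 encodes a tropomyosin that binds actin. Several of these genes are also used elsewhere in the retina: Calb1 in amacrine and ganglion cells, Prox1 in amacrine and bipolar cells and in Müller glia, Onecut1 and Onecut2 in some ganglion cells, and Tpm3 in most cell types.

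The members split by level into 4 abundant genes and 4 with an FPKM below 3. Calb1, Prox1, Sept4 and Tpm3 together had a summed FPKM of 258 in CTRL and 231 in IR12, which was 97.9% and 98.0% of the summed FPKM of the members. Lhx1, Onecut1, Onecut2 and Gja10 together had 5.62 in CTRL and 4.80 in IR12. Both sums are as deposited, and their direction depended on the scaling. The label thus rested, by level, mostly on genes that other retinal cells also express. In this bulk tissue, fewer cells of a type and less RNA per cell cannot be told apart.

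**Figure D1:**
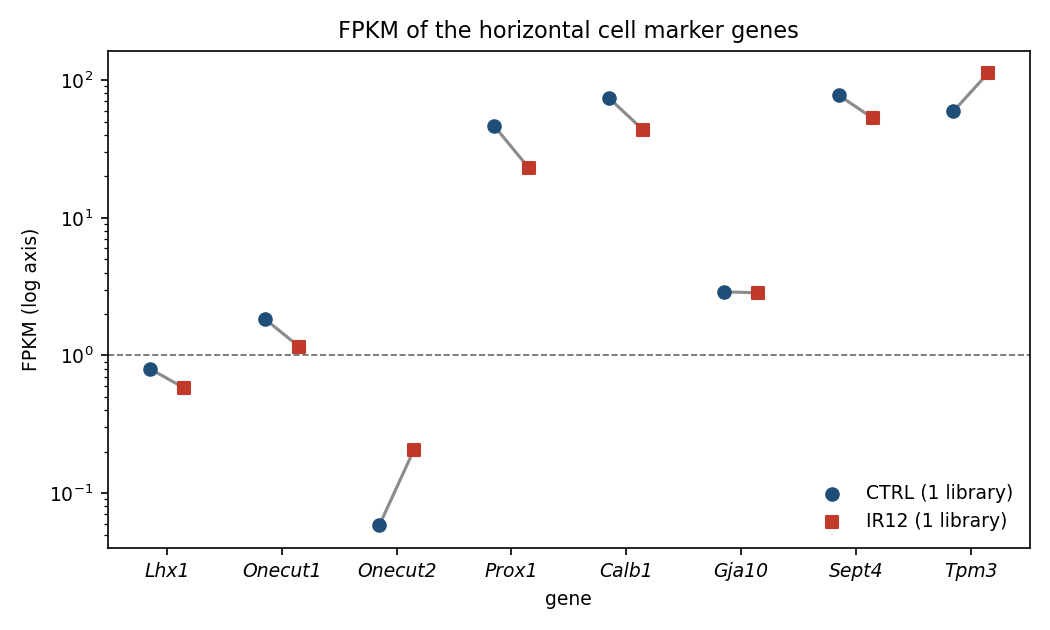
FPKM (log axis) of each of the 8 horizontal cell marker genes in CTRL (circles) and IR12 (squares), 1 library each, with a dashed line at an FPKM of 1. Calb1, Prox1, Sept4 and Tpm3 lie above 20 in both libraries, and Lhx1 and Onecut2 lie below 1 in both.

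Log2 ratios of IR12 over CTRL were taken after adding 1 to each FPKM, which understates the change of low genes, and every count of genes at least 2-fold changed is on this scale unless another is named. Counts and medians used genes with an FPKM of at least 1 in at least 1 library, which left 6 members, without Lhx1 and Onecut2. Of these 6, 0 were at least 2-fold lower and 0 at least 2-fold higher in IR12, against 6.12% and 6.56% of the 13599 genes tested. Without a pseudocount, a setting added after seeing the data, 1 of the 6, Prox1, was at least 2-fold lower, against 9.15% of the genes tested. Of the same 6, 5 were lower by any amount, against 48.2% of all genes tested. The median log2 ratio of the 6 was -0.48 and that of all genes tested 0.02. Over the 8 members without a minimum, 6 were lower and the median was -0.30, against 46.7% and a median of 0.02 over the 19100 genes above 0 in at least 1 library. On the TPM scale, where both libraries are brought to the same summed FPKM, the median log2 ratio of all genes tested was 0.61 and that of the 6 members 0.03, so that the members' median lay -0.58 from that of all genes. On that scale 3051 of all genes tested were at least 2-fold higher and 473 at least 2-fold lower, against 892 and 832 on the deposited scale.

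Prox1 (ENSRNOG00000003694, chr13:108382399-108443294 on rn6), a homeobox factor of horizontal cells, stood at 46.5 FPKM in CTRL and at 23.1 FPKM in IR12. Its log2 ratio was -0.98, the lowest of the 8, and its FPKM without a pseudocount was 2.01-fold higher in CTRL. It thus stood at the 2-fold limit, and passed it with a pseudocount of 0.1 (-1.01). Among the 4237 genes with a mean FPKM of 20 to 100, the log2 ratio ran from -0.76 at the 5th percentile to 0.93 at the 95th, and Prox1 lay below this span.

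Onecut1 (ENSRNOG00000008095, chr8:81766041-81793577 on rn6), which acts upstream of Lhx1 in development, stood at 1.85 FPKM in CTRL and at 1.16 FPKM in IR12, with a log2 ratio of -0.40. Lhx1 (ENSRNOG00000002812, chr10:71843991-71849293 on rn6), a LIM homeobox factor, had 0.801 and 0.581, a log2 ratio of -0.19. Onecut2 (ENSRNOG00000052665, chr18:59830363-59875127 on rn6), the relative of Onecut1, had 0.0584 and 0.205, a log2 ratio of 0.19. The level of Onecut2 was the lowest of the 8 in both libraries. The FPKM of genes that share a locus length fell into steps, and at 17 of 25 lengths compared the lowest repeated step in CTRL was 1.71 times that in IR12, so 1 read stood for more FPKM in CTRL. Adjusted for this, the ratio of Onecut2 in reads was about 6 in IR12 to 1 in CTRL. The number of reads behind it was not known, and at this low level no direction was read from it. The log2 ratio of Onecut1 lay inside the span from -1.28 to 1.60 of the 3442 genes with a mean FPKM of 1 to 5, and that of Lhx1 inside the span from -0.83 to 1.05 of the 1050 genes with 0.5 to 1.

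Calb1 (ENSRNOG00000007456, chr5:29538380-29562773 on rn6), a calcium buffer widely used to stain horizontal cells, stood at 74.2 FPKM in CTRL and at 43.2 FPKM in IR12. Its log2 ratio of -0.77 stood at percentile 4.96 of the genes with a mean FPKM of 20 to 100, just past the lower end of that span. Gja10 (ENSRNOG00000006478, chr5:47834507-47848685 on rn6), a connexin known for its restriction to horizontal cells, had 2.90 in CTRL and 2.85 in IR12. Its log2 ratio was -0.02, level between the libraries where Calb1 was lower in IR12. Another gene in the table shares the locus of Gja10.

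Sept4 (ENSRNOG00000007367, chr10:74861714-74884196 on rn6), a septin that forms filaments at membranes, stood at 77.8 FPKM in CTRL and at 52.8 FPKM in IR12, with a log2 ratio of -0.55. Tpm3 (ENSRNOG00000017441, chr2:189423559-189451029 on rn6), a tropomyosin of the actin cytoskeleton, went the other way, with 59.4 in CTRL and 112 in IR12. Its log2 ratio of 0.90 was the highest of the 8 and stood at percentile 94.8 of the genes with a mean FPKM of 20 to 100. Tpm3 also decided the summed level. Calb1, Prox1 and Sept4 together had 199 in CTRL and 119 in IR12, 0.600 of the CTRL level, whereas with Tpm3 the sum was 0.894 of it. The TPM scale adds 0.65 to each log2 ratio before the pseudocount. On it the sum with Tpm3 was higher in IR12, and that without Tpm3 was still lower.

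**Figure D2:**
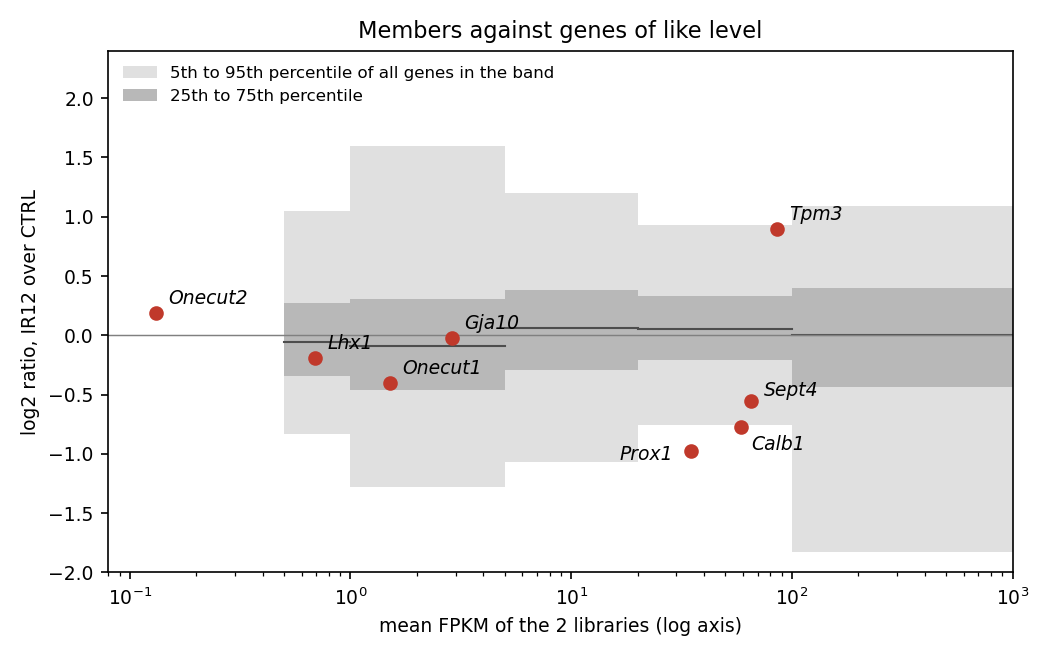
Log2 ratio of IR12 over CTRL against the mean FPKM of the 2 libraries (log axis) for the 8 members (points), over the 5th to 95th (light) and 25th to 75th (dark) percentiles and median (line) of all genes in each band of mean FPKM. Prox1 lies below the light band, Calb1 at its lower edge and Tpm3 near its upper edge.

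Since Onecut1 is a DNA-binding member, the RefSeq start regions of the members were searched for its core motif, ATTGAT or ATCGAT, on both strands, where ATTGAT reads ATCAAT on the other strand and ATCGAT is its own reverse complement. Windows of 250 bases before to 50 after a start were found for 4 of 8 members, 9 windows in all, some of them overlapping. Of these, 3 held the motif, against 8.9% of the 33469 windows of this length. The window of Lhx1, and all but 1 window each of Sept4 and Tpm3, held no match. The 3 windows with a match, from Sept4, Tpm3 and Gja10, are shown. They are given 5′ to 3′ on the gene's strand, on GRCr8, a later build than that of the FPKM table, with the match in capitals: Sept4 at chr10:72863764-72864063, plus strand, Tpm3 at chr2:177814633-177814932, plus strand, and Gja10 at chr5:51797864-51798163, minus strand. The matches began at -205, -131 and -55 from the start of their own window's transcript, which for Sept4 and Tpm3 is 1 of several starts. A match describes these letters and is not a binding site.
Sept4: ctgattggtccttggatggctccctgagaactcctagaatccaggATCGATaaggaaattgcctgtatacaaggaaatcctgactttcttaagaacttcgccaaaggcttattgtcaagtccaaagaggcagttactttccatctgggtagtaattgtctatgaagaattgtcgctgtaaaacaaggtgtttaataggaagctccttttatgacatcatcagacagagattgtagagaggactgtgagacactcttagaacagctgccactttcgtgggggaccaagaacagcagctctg
Tpm3: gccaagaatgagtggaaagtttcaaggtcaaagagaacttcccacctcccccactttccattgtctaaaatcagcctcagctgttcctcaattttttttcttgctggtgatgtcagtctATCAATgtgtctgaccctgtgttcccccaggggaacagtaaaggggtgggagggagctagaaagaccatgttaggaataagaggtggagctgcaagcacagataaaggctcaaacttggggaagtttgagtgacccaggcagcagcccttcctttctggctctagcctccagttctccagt
Gja10: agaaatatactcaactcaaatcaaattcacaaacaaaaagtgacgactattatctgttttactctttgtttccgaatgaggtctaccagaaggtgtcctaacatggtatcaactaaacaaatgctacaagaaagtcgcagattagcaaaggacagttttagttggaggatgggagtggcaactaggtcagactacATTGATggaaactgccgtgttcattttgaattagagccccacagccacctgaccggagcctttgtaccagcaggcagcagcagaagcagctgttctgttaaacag

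The direction of several members depended on the scaling. On the TPM scale the log2 ratio of Prox1 was -0.35, that of Calb1 -0.13 and that of Onecut1 -0.02, while Sept4 (0.09), Lhx1 (0.08) and Gja10 (0.49) were above 0 and Tpm3 reached 1.54. Set against the median of all genes on that scale, Prox1 lay at -0.97, Calb1 at -0.74, Onecut1 at -0.63, Sept4 and Lhx1 at -0.53, Gja10 at -0.13 and Tpm3 at 0.93. The order of these members from lowest to highest was therefore Prox1, Calb1, Onecut1, then Sept4 and Lhx1, Gja10 and Tpm3 on that scale. On the deposited scale with the pseudocount of 1, Sept4 came before Onecut1. Without a pseudocount, Onecut1 (-0.68) came before Sept4 (-0.56) there too, so that this swap came with the pseudocount and not with the scaling alone. The FPKM of small non-coding RNAs made up 68.0% of the summed FPKM in CTRL and 46.3% in IR12. With both libraries brought to the same sum over all other genes, Prox1 was at -1.07 and the members' median at -0.55.

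**Figure D3:**
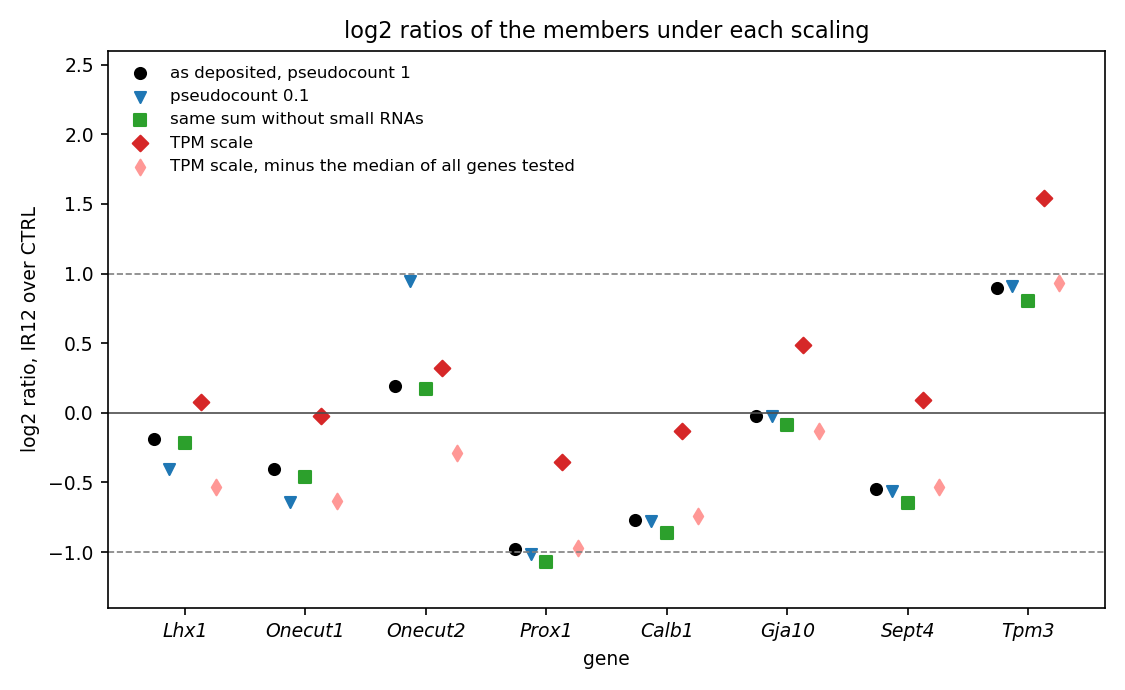
Log2 ratio of IR12 over CTRL for each of the 8 members as deposited and under the alternatives (symbols), with dashed lines at 2-fold. Prox1 sits at the lower dashed line on most scales, Tpm3 passes the upper one on the TPM scale, and Lhx1, Sept4 and Gja10 cross 0 there.

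Sept4, Tpm3 and Gja10 belong to families whose other genes did not move in a single direction on the deposited scale. Among 13 septins, Sept4 ranked 2 by FPKM in CTRL and 3 in IR12, and its share of the summed septin FPKM was 17.7% and 11.5%. Of the other septins, 9 had an FPKM of at least 1, with a median log2 ratio of -0.12 that became 0.51 on the TPM scale. Sept7, the most abundant septin, had 141 in CTRL and 182 in IR12, and Sept9 was the 1 septin at least 2-fold higher (3 of the other septins on the TPM scale), with 8.75 and 23.0. Tpm3 was the leading tropomyosin, with 51.1% of the summed tropomyosin FPKM in CTRL and 57.9% in IR12. Tpm4, another actin-binding tropomyosin, had 26.8 and 52.8, a log2 ratio of 0.95 (1.59 on the TPM scale) close to that of Tpm3, while Tpm1 had 27.4 and 26.2 and Tpm2 2.62 and 2.19, both with log2 ratios above 0 on the TPM scale (0.56 and 0.29).

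Gja10 ranked 5 of 19 connexins by FPKM in CTRL and 4 in IR12. Of the other connexins, 8 had an FPKM of at least 1, with a median log2 ratio of -0.66 (-0.41 on the TPM scale), and 4 of these were at least 2-fold lower (3 on the TPM scale, with 1 at least 2-fold higher). Among them were Gja3, a lens connexin (1.33 in CTRL and 0.112 in IR12), and Gja1 (40.7 and 6.63) and Gjb6 (1.41 and 0.0752), which are expressed by glia. The neuronal connexins were closer to Gja10. Gjd2, which couples amacrine and other neurons, had 50.4 and 42.1, and Gjc1 had 7.79 and 7.10. Of the 8 other calcium-binding proteins listed, 8 were lower and 0 at least 2-fold lower, with a median log2 ratio of -0.50. The TPM scale gave 3 of these 8 lower and a median of 0.12. Calb2, the calretinin of amacrine and ganglion cells, had 275 in CTRL and 148 in IR12, and Pvalb had 124 and 82.5.

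Other genes used in horizontal cell development and signalling were mostly lower in IR12 on the deposited scale. Of 10 further transcription regulators, 5 had an FPKM of at least 1, and 5 of these 5 were lower, with a median log2 ratio of -0.84 (-0.38 on the TPM scale, with 3 of 5 lower). Ldb2, a partner of LIM factors such as Lhx1, was the 1 at least 2-fold lower (3 without a pseudocount, 0 on the TPM scale), with 17.1 in CTRL and 7.96 in IR12, and Ldb1 had 22.7 and 22.0. Tfap2b, shared with amacrine cells, had 34.4 and 16.7, just short of the limit on the log2 scale with the pseudocount. Tfap2a had 1.65 and 0.478, and Pax6 had 165 and 105. Foxn4 was listed at 0 in CTRL, and Lhx5 and Ptf1a at 0 in both libraries.

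Of 7 genes of transmission, 6 were lower and 2 at least 2-fold lower, with a median log2 ratio of -0.85. The TPM scale gave 4 of 7 lower, 0 at least 2-fold lower and 1, Panx1, at least 2-fold higher, with a median of -0.21. Among those 2 was Gria4, an AMPA receptor subunit (62.6 and 27.1). The GABA-synthesizing enzymes had 107 and 82.7 (Gad1) and 28.7 and 15.4 (Gad2), and the channel gene Panx1 was the 1 that was higher, with 2.64 and 4.52. Of 8 genes of cell processes and spacing, 8 were lower and 0 at least 2-fold lower with the pseudocount (1, Megf11, without it), with a median of -0.47. The TPM scale gave 3 of these 8 lower and a median of 0.16. Megf11, which acts in the spacing of horizontal cells, had 2.25 and 0.903, and Nefl, the neurofilament light chain, had 132 and 88.8.

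Markers of neighbouring cell types also differed between the libraries, and their part in the values of the members was not tested. Of 11 amacrine cell markers, 7 of which are also in the lists above, 11 were lower and 0 at least 2-fold lower with the pseudocount (3 without it), with a median log2 ratio of -0.75 and a summed FPKM of 707 in CTRL and 427 in IR12, led by Calb2. Of 10 bipolar cell markers, 8 were lower and 0 at least 2-fold lower, with a median of -0.46 and a sum of 754 and 573, led by Trpm1 (189 and 159). Of 10 ganglion cell markers, 8 had an FPKM of at least 1 and 1, Pou4f2 (3.41 and 1.06), was at least 2-fold lower (2 without a pseudocount, 0 on the TPM scale), with a median of -0.33 and a sum of 326 and 264, led by Nefl. The members' median of -0.48 lay between those of the amacrine and the ganglion cell markers, and the difference from them was not tested. On the TPM scale the amacrine, bipolar and ganglion cell medians were -0.16, 0.17 and 0.30, with 6 of 11, 3 of 10 and 2 of 8 lower. The bipolar and ganglion cell sums were higher in IR12 on that scale, and the amacrine sum was still lower.

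Prox1 is also made by Müller glia and lens, and the median of each of those lists was lower in IR12. Of 9 Müller glia markers, 7 were at least 2-fold lower and 1, Clu (223 and 673), at least 2-fold higher, while Vim (121 and 221) was higher by less, with a median log2 ratio of -1.29 and a summed FPKM of 1456 in CTRL and 1123 in IR12. Glul, the most abundant, had 754 and 126. The others at least 2-fold lower were Aqp4, Kcnj10, Rlbp1, Apoe, Sox9 and Slc1a3, and on the TPM scale 4 of the 9 were at least 2-fold lower and 2 at least 2-fold higher. Of 8 lens markers, 8 were at least 2-fold lower, with log2 ratios from -3.16 to -1.36, a median of -2.70 and a sum of 3258 and 386, led by Cryba1 (1614 and 196). Of 10 leukocyte and microglia markers, 6 were at least 2-fold higher, with log2 ratios over the list from -0.36 to 4.32, a median of 1.63 and a sum of 21.8 and 138, led by Lyz2 (9.73 and 76.9), and S100a8 was listed at 0 in CTRL. On the TPM scale the medians of these 3 lists were -0.66, -2.20 and 2.14. The Müller glia sum was higher in IR12 on that scale, and the lens sum was still lower. Their part in the values of Prox1 and Tpm3 was not tested. Gapdh, a general reference gene, had 716 FPKM against 690.1 FPKM, and its log2 ratio was -0.05, which became 0.59 on the TPM scale.

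**Figure D4:**
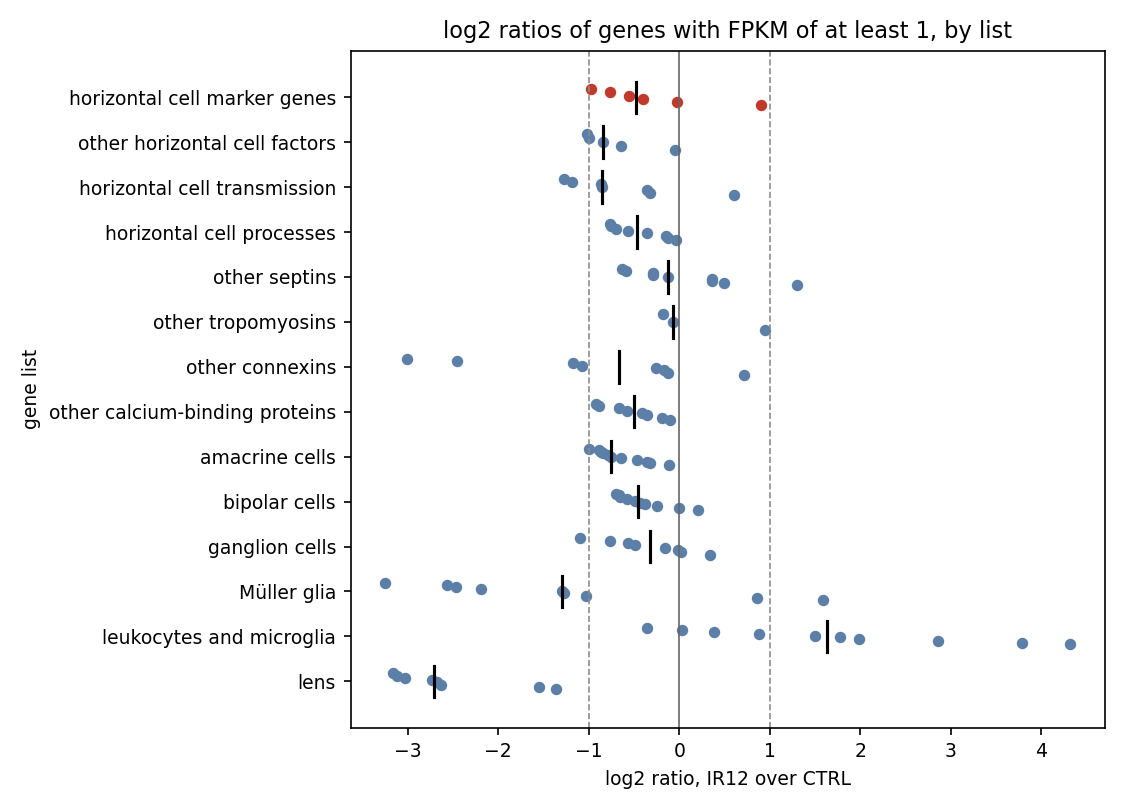
Log2 ratio of IR12 over CTRL for each gene with an FPKM of at least 1 in at least 1 library (points), by gene list, with the median of each list (black bar) and dashed lines at 2-fold. The members' median of -0.48 lies to the left of 0, with Tpm3 apart at 0.90.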

How the data were processed

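Retinal RNA from 2 libraries, CTRL and IR12, was sequenced single-end, and the authors shortened the reads before use. The library kit is a stranded total RNA kit in the labels but a stranded mRNA kit in the series description. Each includes rRNA depletion. The authors deposited gene-level FPKM, a unit scaled to transcript length and depth. The submitters' processing notes list STAR 2.5.2b, Cuffdiff 2.2.0 and the rn6 build, and the normalization between libraries is not given in the sources used here. FPKM was used as deposited. Listed starts count from 0, since 190 of 346 microRNA loci then had the length of their RefSeq hairpin (0 when counted from 1), and were raised by 1.

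Log2 ratios used a pseudocount of 1. Other settings tried were 0.1 as the pseudocount, ratios centred on the median gene, the TPM scale, the same sum without small non-coding RNAs, and a minimum FPKM of 5 or none. The summed FPKM was 1402321 in CTRL and 895199.9 in IR12. The read totals that the study states for each library were not used here. The FPKM of 1 read in CTRL over that in IR12 was taken from the FPKM steps after seeing the data. It holds any scaling between the libraries and is not a measure of depth alone. Genes named were the members, Gapdh and the genes of the lists, with values in the cell type lists for the most abundant gene and for those at least 2-fold changed, except that the Müller glia, lens and leukocyte lists are given by examples and ranges. Values of some genes of the lists are not reported here. The members and lists were chosen with earlier results of these data known. Sequences came from RefSeq (GRCr8), where 8 of 8 members matched by symbol or synonym. The calculation of the ratios was tried on simulated data, and no ratio was tested statistically. Calculations ran in Python 3.11.15 with pandas 2.3.3 and numpy 2.4.6, and plots were drawn with matplotlib 3.10.9.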

Additional observations from a re-analysis of the deposited data

How the results depend on the processing

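With 1 library per group, no library could be left out. No paired analysis was possible because the result comes from no test. A member's ratio was read as moved when it crossed the 2-fold limit and as reversed when it changed sign, and a count as moved when it changed by more than 1.5 times. On the TPM scale the members' median log2 ratio was 0.03, with 3 of 6 members lower (15.7% of all genes tested) and 1 at least 2-fold higher (22.4%), and the ratios of Lhx1 (0.08), Sept4 (0.09) and Gja10 (0.49) were above 0. The scaling itself adds 0.65 to each log2 ratio before the pseudocount. With a pseudocount of 0.1, with centring on the median gene and with the same sum without small non-coding RNAs, 1 member, Prox1, was at least 2-fold lower, against 8.65%, 6.37% and 6.88% of all genes tested. With a minimum FPKM of 5, 3 of 4 members were lower, against 45.5% of 10281 genes. Without a pseudocount, a setting chosen after seeing the data, 1 member, again Prox1, was at least 2-fold lower, and Onecut2, which had not passed the minimum, reached 1.81. Of 40 ratios of single members under other settings, 31 kept their sign and their side of the 2-fold limit.

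Whole reads behind the FPKM of the 4 low members were also sought after seeing the data, within a relative tolerance of 1e-05. A pair of whole numbers was found for 3 of them and not for Onecut2. Since such a pair is chosen to match the FPKM ratio, it says nothing about the ratio, and it was not used.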

Other observations

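Rod markers gave a median log2 ratio of 0.04 over 8 genes, with 0 at least 2-fold changed and a summed FPKM of 15588 in CTRL and 18994 in IR12. The rod median was 0.69 on the TPM scale, with 0 genes lower and 1 at least 2-fold higher. Cone markers gave a median of -0.51 over 8 genes, 8 of them lower, with a sum of 521 and 347, led by Gnat2 (179 and 138). Opn1sw (6.68 and 2.66) was the 1 cone marker at least 2-fold lower (2 without a pseudocount, 0 on the TPM scale). On the TPM scale the cone median was 0.14, with 4 of 8 lower and a sum that was higher in IR12.

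Among 2 astrocyte markers with an FPKM of at least 1, Gfap was at least 2-fold higher (2.95 and 21.9) and S100b at least 2-fold lower (25.8 and 5.81), a median of 0.28. Of 5 endothelial markers, 0 were at least 2-fold changed, with a median of -0.02 (0.51 on the TPM scale), led by Kdr (108 and 66.8). Of 6 smooth muscle and pericyte markers, Des was at least 2-fold higher (0.296 and 1.81) and Rgs5, the most abundant, at least 2-fold lower (38.6 and 17.6), a median of -0.31 (0.21 on the TPM scale, where 0 were at least 2-fold lower). Of 4 pigment epithelium markers with an FPKM of at least 1, Rpe65 was at least 2-fold lower (11.1 and 4.88), with a median of 0.29, led by Ttr (61.8 and 87.4). The TPM scale gave 0 of these 4 at least 2-fold lower and 2, Rgr and Ttr, at least 2-fold higher, with a median of 0.88. Of 2 blood markers with an FPKM of at least 1, Hba-a2 was at least 2-fold higher (6.77 and 17.1), with a median of 0.99 (2 of 2 at least 2-fold higher and 1.61 on the TPM scale), led by Hbb (20.4 and 35.1). Hba-a1 (0.859 and 0.168) and Alas2 (0.334 and 0.196), below this minimum, were lower in IR12.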
